A study of Mus musculus with 3 samples.

Results

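Ccnd1 and Ccnd2 encode the D-type cyclins D1 and D2, and Cdk6 encodes a kinase that these cyclins activate. They are 3 of the 6795 genes measured on 3 spotted 2-colour arrays of mouse thymocyte total RNA. The genes were found by their symbols in the platform annotation, which gave 1 probe for Ccnd1 (Entrez gene 12443), 1 for Ccnd2 (Entrez gene 12444) and 2 for Cdk6 (Entrez gene 12571), or 4 of 9596 probes. They were chosen with their ratios on these arrays known, so those ratios are given as a description, with no test.

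Each array compared RNA of CD69hi thymocytes, purified from wild-type B6 mice, with RNA of unseparated Zap70-/- thymocytes. CD69 is a surface protein that thymocytes gain when their T cell receptor is engaged, and Zap70 is the kinase that passes that signal on, so mice without it hold few thymocytes past the CD4+CD8+ stage. The titles call the second RNA CD69lo. On arrays 1 and 2 Cy3 labelled the CD69hi RNA, on array 3 Cy5 did, and all were of the same print. The 2 RNAs differed in genotype and in purification at once, and these cannot be told apart. Age, sex and any pooling of the mice are not stated in any source used here. Whether separate animals stood behind the arrays is not in the labels, so p-values measure only how far these arrays spread, which may be technical.

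Values are log2 ratios of CD69hi over Zap70-/- RNA, and the base 2 is an assumption since the sources used here do not give it. With a natural logarithm every fold would be larger. A ratio above 0 means more of a transcript in the CD69hi RNA. This direction is likely, though the submitters do not state it. Its basis is the recombinase gene Rag1 and the terminal transferase gene Dntt, both genes of immature thymocytes, whose ratios were -1.19 ± 0.36 and -1.05 ± 0.71 (SD, n = 3). This basis is narrow. Dntt did not pass (limma adjusted p = 0.12). Rag1 lost its call without array 1 (limma adjusted p = 0.13) and also without array 2 (limma adjusted p = 0.18). Of 18 measured markers of immature thymocytes, 3 were higher and 3 lower, or 2 and 1 without array 2. The higher ones were Il7r and Cd44, also found on mature T cells, and Spi1, also a factor of myeloid cells. The lower ones were Arpp21, Notch3 and Rag1. This split therefore does not decide the direction. With the opposite reading every sign below would turn. A ratio gives no level of a transcript in either RNA, and in such bulk RNA more cells of a type and more RNA per cell cannot be told apart.

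D-type cyclins are the cyclins through which outside signals reach the cell cycle. They bind Cdk4 or Cdk6 in the G1 phase, and the active kinase phosphorylates the retinoblastoma protein, which then frees E2F transcription factors to switch on the genes of DNA synthesis. Immature thymocytes proliferate before and during the step to the CD4+CD8+ stage, where Cdk6 and cyclin D3 are known to act, and then stop dividing. Ccnd2 is known as a D cyclin that antigen receptors and cytokines induce in lymphocytes, while Ccnd1 is better known from other tissues.

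The start regions of the kinase gene Cdk6 and of its close relative Cdk4 are shown because both kinases serve the same cyclins and both genes were measured here. The sequences are from RefSeq (GRCm38.p6) and run from 250 bases before to 50 bases after the annotated start, on the + strand, at chr5:3343643-3343942 for Cdk6 and chr10:127063285-127063584 for Cdk4. Of the 4 symbols looked up, 2 matched. Ccnd1 and Ccnd2 have no entry in that table. Capitals mark the E-box CACGTG, the motif that Myc and related factors bind.
Cdk6: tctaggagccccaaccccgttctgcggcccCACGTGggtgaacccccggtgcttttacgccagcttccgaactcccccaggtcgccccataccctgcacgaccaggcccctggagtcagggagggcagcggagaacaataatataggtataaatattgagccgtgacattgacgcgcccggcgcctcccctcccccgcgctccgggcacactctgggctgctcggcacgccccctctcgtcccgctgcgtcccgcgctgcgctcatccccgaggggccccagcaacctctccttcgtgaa
Cdk4: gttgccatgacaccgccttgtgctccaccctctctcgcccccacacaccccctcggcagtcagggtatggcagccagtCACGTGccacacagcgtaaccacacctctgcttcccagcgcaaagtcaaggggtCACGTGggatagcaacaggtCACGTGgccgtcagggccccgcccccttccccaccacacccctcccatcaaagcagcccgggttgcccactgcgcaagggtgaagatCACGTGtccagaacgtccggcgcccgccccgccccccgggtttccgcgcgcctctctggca
The Cdk6 window held 1 E-box, 220 bases before the start. The Cdk4 window held 4, at 172, 118, 98 and 11 bases before the start. CACGTG reads the same on both strands and was found in 7.15% of 32851 such windows. The GC box GGGCGG, searched on both strands, was found at 0 places in the Cdk6 window and at 3 in the Cdk4 window, against 35.7% of all windows with at least 1. The E2F core TTTCGCGC and the cAMP response element TGACGTCA, each searched on both strands, were found in neither window, against 0.323% and 1.79% of all windows. No searched motif overlapped an E-box. These are matches of letters, and no binding was measured.

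Ccnd2 had the highest ratio of the 3 genes. Its log2 ratio read 1.70 on array 1, 3.07 on array 2 and 3.23 on array 3, a mean of 2.67 ± 0.84 (SD, n = 3) or 6.34-fold more in CD69hi RNA. All 3 arrays lay above 0, and array 1 lay well below arrays 2 and 3. The SD of Ccnd2 was larger than that of 95.0% of the 6795 genes. Ranked by mean ratio, Ccnd2 stood 29th from the top of these genes, and it stood 93rd, 28th and 27th on arrays 1, 2 and 3. Without array 1 its mean was 3.15, and without array 3 it was 2.38.

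Ccnd1 was also higher in CD69hi RNA on each array, by less and with little spread. Its log2 ratio was 0.71, 0.82 and 0.90 on arrays 1, 2 and 3, a mean of 0.81 ± 0.10 (SD, n = 3) or 1.76-fold more. The 3 values lay within 0.19 of each other, although array 3 carried the dyes the other way round. Ccnd1 stood 331st from the top of the 6795 genes by mean ratio, and 570th, 435th and 548th on arrays 1, 2 and 3. The ratio of Ccnd2 exceeded that of Ccnd1 on every array, by 0.99, 2.25 and 2.32 on the log2 scale. Over all 8905 features measured (genes, and probes without a single gene symbol), 24.3% lay above 0 on every array. The D cyclins were chosen for their ratios, so nothing is read from their count against this share.

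Cdk6 lay on the other side of 0. Probe 1 (642946_1) had log2 ratios of -1.13, -1.54 and -1.16 on arrays 1, 2 and 3, with a mean of -1.28 ± 0.23 (SD, n = 3). Probe 2 (649377_1) had -0.71, -0.58 and -0.87, with a mean of -0.72 ± 0.14. Both probes lay below 0 on each array and their ranges did not overlap, probe 1 being the lower on every array by 0.42, 0.96 and 0.29. The gap between the probe means, 0.56, was larger than in 84.4% of the 576 genes with exactly 2 probes, where the median gap was 0.21. Array 2 gave the lowest ratio of probe 1 and the highest of probe 2.

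Averaged over its probes, Cdk6 had log2 ratios of -0.92, -1.06 and -1.01 and a mean of -0.998 ± 0.075 (SD, n = 3), or 2.00-fold less in CD69hi RNA. This narrow spread comes from averaging probes that moved apart on array 2, and each probe alone had a larger SD. Cdk6 stood 216th from the bottom of the 6795 genes by mean ratio, and 328th, 289th and 312th on arrays 1, 2 and 3. Of all 8905 features, 22.7% lay below 0 on every array, from which nothing is read for a gene chosen by its ratio. The log2 ratio of Ccnd1 lay above that of Cdk6 by 1.63, 1.89 and 1.92 on the 3 arrays, and that of Ccnd2 by 2.61, 4.14 and 4.24.

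**Figure D1:**
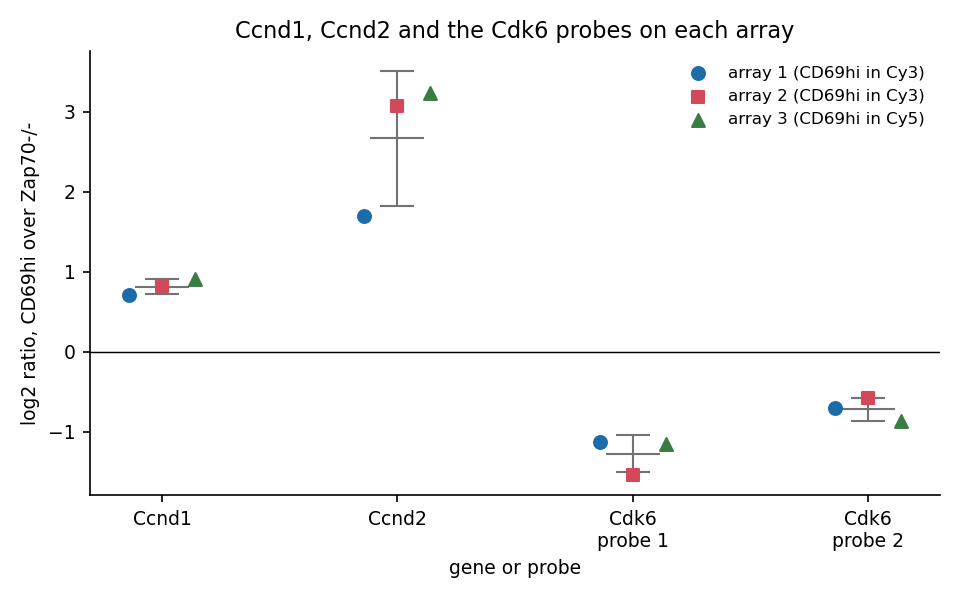
Log2 ratios of CD69hi over Zap70-/- RNA (y axis) for Ccnd1, Ccnd2 and each Cdk6 probe (x axis). Coloured symbols are the 3 arrays, the wide grey bar is the mean and the whiskers are the SD. Both cyclins lie above 0 and both Cdk6 probes below 0 on every array, and array 1 is the low value of Ccnd2 at 1.70.

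The genes whose 3 ratios lay nearest to each member were found by Euclidean distance over the turned ratios of the 3 arrays, among all 6795 genes. For Ccnd1 they were Map3k8, a kinase of the MAP kinase pathways (distance 0.05), Yaf2 (0.05) and the transporter gene Abcc1 (0.07). For Ccnd2 they were Tnfrsf9, the co-stimulatory receptor 4-1BB (0.42), the adaptor gene Sh3bp2 (0.60) and the integrin chain Itgb3 (0.61). Tnfrsf9 had log2 ratios of 2.11, 3.16 and 3.27, with array 1 lowest as for Ccnd2. For Cdk6 they were the integrin chain Itga4 (0.13), Art1 (0.14) and Prps2, an enzyme of nucleotide precursor synthesis (0.15). With 3 arrays these distances describe similar ratios and nothing more.

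The other genes of G1 control were tested in the fit across all features, where 4.13% of features were higher and 2.81% lower in CD69hi RNA (limma, Benjamini-Hochberg adjusted p at most 0.05). At a raw p no higher than 0.05 the shares of all features were 12% higher and 11.4% lower. This list and every list below were written with earlier results of these data known. Their counts beside these shares are therefore a description. Of 36 listed G1 genes 19 were measured. None was higher, 1 was lower and 18 did not pass (0 higher and 3 lower at that raw p). Their median log2 ratio was -0.13, against 0.01 for all features. Ccnd3, Cdk2, Ccne2, Cdkn1b, Cdkn2a, Cdkn2c, Rbl2, E2f1, E2f2 and E2f4 are among those not analysed here.

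Cdk4, the other kinase of the D cyclins, had log2 ratios of -0.89, -0.81 and 0.03 on arrays 1, 2 and 3. Array 3 stood apart from arrays 1 and 2, and the mean of -0.55 ± 0.51 (SD, n = 3) did not pass (limma adjusted p = 0.24). Without array 3 it passed (adjusted p = 0.043). Cdk4 lay above Cdk6 by 0.03, 0.26 and 1.04 on the 3 arrays, so the gap between the kinase genes was near 0 on array 1 and wide on array 3. Ccne1, the cyclin that acts after the D cyclins, had log2 ratios of -0.81, -0.98 and -0.38, all below 0, and a mean of -0.72 ± 0.31 that did not pass (limma adjusted p = 0.081). Ccne1 passed on leaving out array 3 (adjusted p = 0.045) and with a term for dye (adjusted p = 0.047). Only array 3 had the dyes swapped, so the dye term also sets array 3 apart and is no separate check.

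Inhibitors of these kinases did not pass. Cdkn1a, the p53-induced inhibitor p21, had log2 ratios of 0.12, -0.004 and 0.68 (mean 0.26 ± 0.37, SD, n = 3, limma adjusted p = 0.45). Cdkn1c had a mean of 0.12 ± 0.58, and the Cdk4 and Cdk6 inhibitors Cdkn2b and Cdkn2d had means of 0.26 ± 1.05 and -0.13 ± 0.35. The 3 arrays of each of these inhibitors lay on both sides of 0. Cdkn2b ran from -0.75 on array 3 to 1.35 on array 1.

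The pocket proteins and E2F factors downstream of the kinases also lay near 0. Rb1, the retinoblastoma gene, had a mean log2 ratio of -0.12 ± 0.26 (SD, n = 3) and its relative Rbl1 one of -0.08 ± 0.13. E2f3, E2f5 and E2f6 had means of -0.06 ± 0.15, 0.22 ± 0.38 and 0.005 ± 0.31. Adjusted p-values for these 5 genes ran from 0.56 to 0.99 (limma). Each of the 5 had values on both sides of 0.

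Skp2 was the 1 G1 gene that passed. It encodes the ubiquitin ligase subunit that marks the inhibitor p27 for destruction at the entry to S phase. Its log2 ratio was -1.69, -1.51 and -0.98 on arrays 1, 2 and 3, a mean of -1.39 ± 0.37 (SD, n = 3, limma adjusted p = 0.028). All 3 arrays lay below 0. The call ended on leaving out array 1 (adjusted p = 0.092), on leaving out array 2 (adjusted p = 0.12) and with scaled arrays (adjusted p = 0.072). Leaving out array 3 gave 4 lower G1 genes, and a dye term gave 3.

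**Figure D2:**
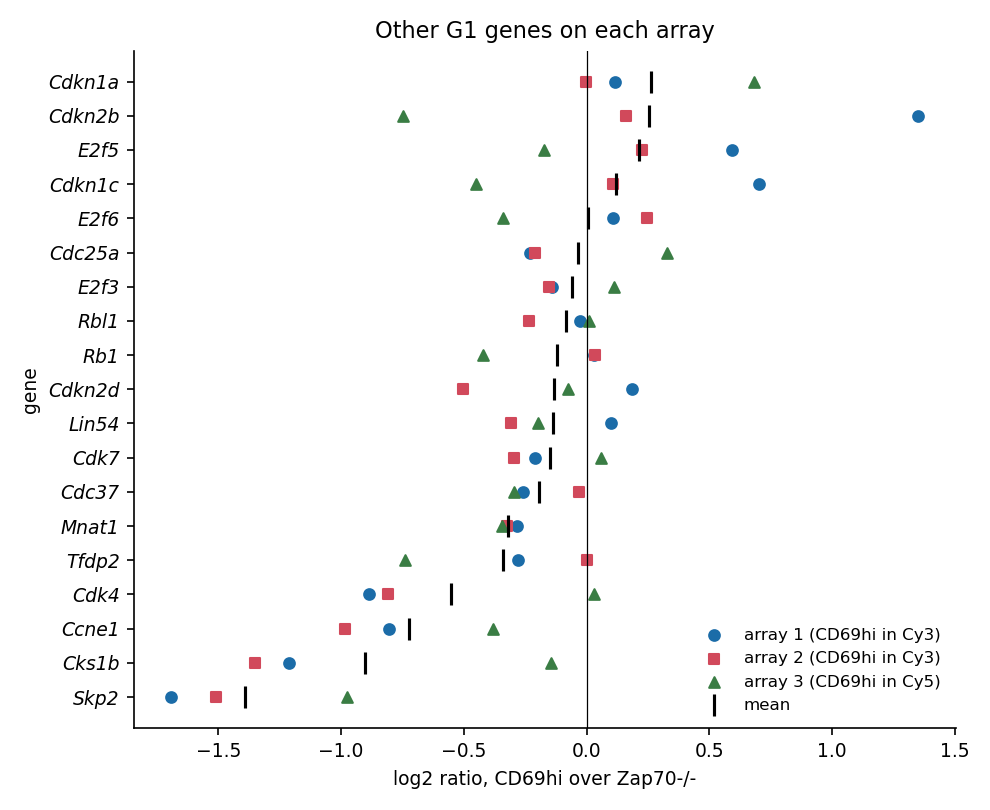
Log2 ratios of CD69hi over Zap70-/- RNA (x axis) of the 19 measured G1 genes other than the D cyclins and Cdk6 (y axis, ordered by mean). Symbols are the 3 arrays and black bars the means. Skp2 lies lowest at -1.39, and 14 of the 19 genes have arrays on both sides of 0.

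Among the other cyclins and cyclin-dependent kinases, a list that shares genes with the G1 and the mitosis lists, 22 of 42 listed genes were measured, and none was higher, 3 were lower and 19 did not pass (1 higher and 6 lower at a raw p no higher than 0.05), where all features gave 2.81% lower, or 11.4% at the raw p. The 3 are genes of G2 and mitosis. Ccnf had a mean log2 ratio of -2.27 ± 1.05 (SD, n = 3, limma adjusted p = 0.048), Cdk1, the mitotic kinase, one of -1.87 ± 0.82 (adjusted p = 0.045), and Ccnb2, a cyclin of Cdk1, one of -1.17 ± 0.30 (adjusted p = 0.031). On each of the 3 genes array 3 gave the ratio nearest 0. The list median was -0.09, and 0 of the 22 genes had a mean above that of Ccnd1. The 3 calls ended on leaving out array 1 (adjusted p = 0.13, 0.13 and 0.12), on leaving out array 2 (adjusted p = 0.12, 0.13 and 0.17) and with scaled arrays (adjusted p = 0.091, 0.088 and 0.063). Leaving out array 3 gave 5 lower genes.

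S phase and mitosis genes, many of which E2F factors drive, lay below 0 where the D cyclins lay above it. Of 74 listed genes 53 were measured, of which 18 were lower, 0 higher and 35 did not pass (0 higher and 43 lower at a raw p no higher than 0.05). Of all features 2.81% were lower, and 11.4% at the raw p. The list was written with earlier results of these data known. The median log2 ratio of the 53 was -1.09, and 47 of the 53 lay below 0 on every array. The list median was -1.30, -1.37 and -0.61 on arrays 1, 2 and 3. The mean of Cdk6 fell inside this list, with 31 of the 53 genes below it. Tpx2, a spindle factor, was the 1 gene of the 53 with a mean above that of Ccnd1, but its arrays read -4.00, 2.52 and 4.52 and it did not pass (limma adjusted p = 0.76).

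The 6 called genes of this list with the largest ratios were Bub1b (-2.14 ± 0.81, SD, n = 3), Aurkb (-1.95 ± 0.83), Cdk1, Kif20a (-1.84 ± 0.62), Top2a (-1.67 ± 0.29) and Rrm1 (-1.62 ± 0.63). Bub1b and Aurkb are kinases of the mitotic checkpoint and chromosome segregation, Kif20a is a motor of cytokinesis, Top2a untangles DNA and Rrm1 is a subunit of the enzyme that makes deoxynucleotides. Their adjusted p-values ran from 0.015 to 0.045 (limma). The count depended on the arrays used. Leaving out array 1, 2 or 3 gave 0, 0 and 33 lower genes (38, 35 and 44 lower at a raw p no higher than 0.05), and scaled arrays gave 6 and a dye term 34. Dropping an array takes away 1 of the 2 residual degrees of freedom. Without array 1, Tpx2 was called higher (adjusted p = 0.044).

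**Figure D3:**
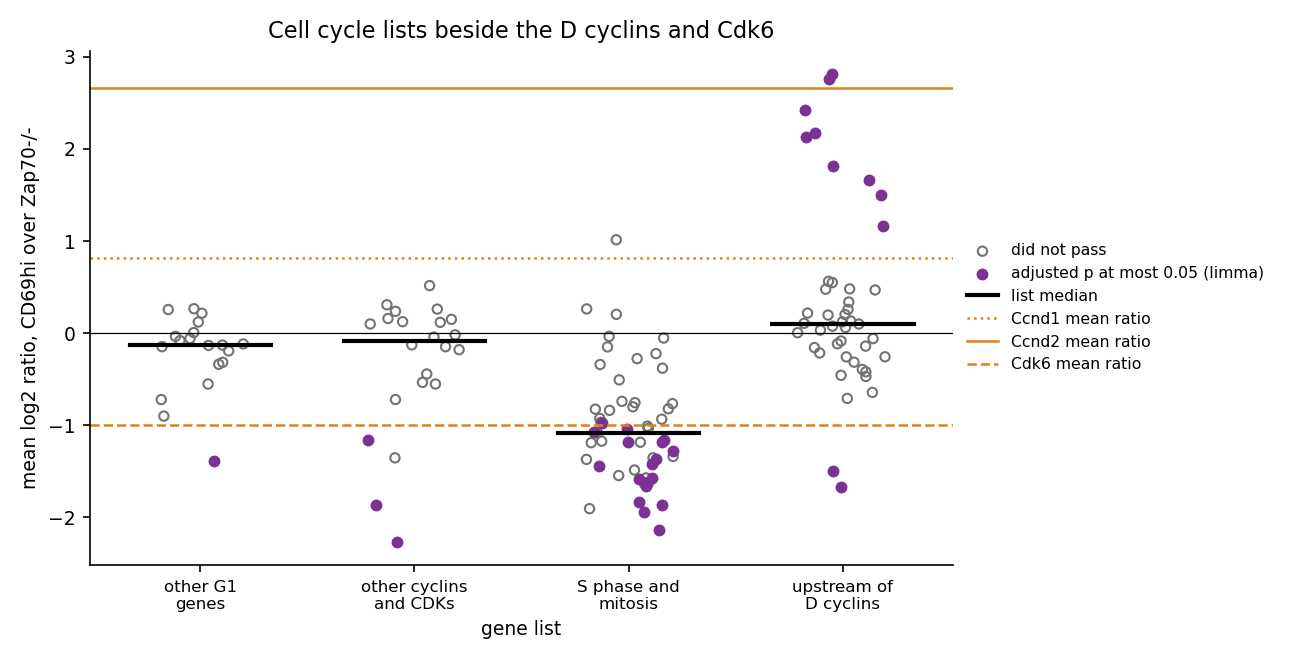
Mean log2 ratio of CD69hi over Zap70-/- RNA (y axis) for each measured gene of 4 lists (x axis). Filled points passed limma at an adjusted p of at most 0.05, black bars are list medians, and orange lines are the means of Ccnd1, Ccnd2 and Cdk6. The S phase and mitosis median of -1.09 lies close to Cdk6 at -0.998, and Ccnd2 at 2.67 lies above every gene of the first 3 lists.

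Of 80 listed regulators upstream of the D cyclins 44 were measured. Of these 9 were higher, 2 lower and 33 did not pass, with a median log2 ratio of 0.10 (14 higher and 7 lower at a raw p no higher than 0.05). Of all features 4.13% were higher and 2.81% lower, or 12% and 11.4% at the raw p. The 6 called regulators with the largest ratios were Id2, which blocks E proteins (2.81 ± 0.42, SD, n = 3), the interleukin-7 receptor gene Il7r (2.76 ± 0.22), Klf2 (2.43 ± 0.34), the AP-1 subunit Fos (2.18 ± 0.25), the NF-κB subunit Relb (2.13 ± 0.37) and the interleukin-2 receptor chain Il2rb (1.82 ± 0.76). Klf2 is known as a factor of T cell quiescence, so the list holds genes known to act against division as well as for it. Adjusted p-values of the 6 ran from 0.0057 to 0.041 (limma). The means of Id2 and Il7r lay above that of Ccnd2. Il2rb did not pass on leaving out array 2 (adjusted p = 0.13), on leaving out array 3 (adjusted p = 0.089) or with a term for dye (adjusted p = 0.051). Without array 2 the count of higher genes was 5.

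The others that were higher were Egr3, an early target of the T cell receptor (1.67 ± 0.35), Id3 (1.50 ± 0.31) and the Wnt pathway factor Lef1 (1.16 ± 0.17, SD, n = 3). Each of these 3 lost its call on leaving out array 2 (limma adjusted p = 0.065, 0.072 and 0.14), Lef1 also on leaving out array 1 (adjusted p = 0.070) and Egr3 also on leaving out array 3 (adjusted p = 0.0503). The 2 lower genes were Notch3, a receptor of immature thymocytes, at -1.67 ± 0.71 (limma adjusted p = 0.044), and Ets2 at -1.50 ± 0.50 (adjusted p = 0.033). Notch3 did not pass on leaving out array 2 (adjusted p = 0.12), on leaving out array 3 (adjusted p = 0.097) or with a term for dye (adjusted p = 0.074), and Ets2 did not on leaving out array 1 (adjusted p = 0.11), on leaving out array 2 (adjusted p = 0.13) or with scaled arrays (adjusted p = 0.078).

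Myc, a growth factor-induced regulator whose product is known to act on Ccnd2 and Cdk4, had log2 ratios of -0.76, -0.83 and -0.35, all below 0. Its mean of -0.65 ± 0.26 (SD, n = 3) did not pass (limma adjusted p = 0.089), but it did on leaving out array 3 (adjusted p = 0.045) and with a term for dye (adjusted p = 0.048). Myc was named after its values were seen. It lay on the side of Cdk6 on every array and on that of Cdk4 on arrays 1 and 2. Ccnd2 lay on the other side of 0 on every array. Any link of Myc to the ratios of these genes was not tested.

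Of 22 measured macrophage and dendritic cell markers 13 were higher in CD69hi RNA, 0 lower and 9 did not pass (limma, 18 higher and 0 lower at a raw p no higher than 0.05), where all features gave 4.13% higher, or 12% at the raw p. Their means ran from 0.04 (Itgam) to 2.83 (Ctss), with a median log2 ratio of 1.17, and 16 of the 22 lay above Ccnd1 and 1 above Ccnd2. The lysozyme gene Lyz2 had 2.51 ± 0.08 and the lipoprotein gene Apoe 2.46 ± 0.14 (SD, n = 3, limma adjusted p = 0.0051 and 0.0057). All features gave 2.81% lower, or 11.4% at the raw p. Of 14 natural killer and innate-like lymphocyte markers 6 were higher and 1 lower (median 0.67, 10 higher and 1 lower at the raw p). By moderated t the first were Id2 and the chemokine Xcl1 (1.31 ± 0.25, limma adjusted p = 0.022), and Xcl1 did not pass on leaving out array 2 (adjusted p = 0.12). The lower gene was the granzyme gene Gzma (-2.29 ± 0.94, adjusted p = 0.039), which did not pass on leaving out array 1 (adjusted p = 0.11) or array 2 (adjusted p = 0.087), or with scaled arrays (adjusted p = 0.078). The higher count of this list fell to 3, to 1 and to 3 when array 1 or array 2 was left out or the arrays were scaled. These lists share Id2 and Il2rb with the upstream regulators. The part of such cells in the ratios of Ccnd1 and Ccnd2 was not tested.

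The shares of all features were 4.13% higher and 2.81% lower (limma), or 12% and 11.4% at a raw p no higher than 0.05. Of 11 B cell markers 1 was higher, Cd72 (0.95 ± 0.15, SD, n = 3, limma adjusted p = 0.031), while Cd79a at 1.40 ± 0.70 did not pass (adjusted p = 0.062). At that raw p 4 of the 11 were higher and 0 lower. Cd72 did not pass on leaving out array 1 (adjusted p = 0.11) or array 2 (adjusted p = 0.24). Of 10 granulocyte markers 1 was lower, S100a8 (-0.86 ± 0.27, adjusted p = 0.049), which lost its call on leaving out array 1 (adjusted p = 0.18), array 2 (adjusted p = 0.35) or array 3 (adjusted p = 0.052), and with scaled arrays (adjusted p = 0.065). The granulocyte gene Camp at -1.14 ± 0.55 did not pass (adjusted p = 0.066), but did on leaving out array 3 (adjusted p = 0.038) and with a term for dye (adjusted p = 0.042). The median of the granulocyte list was -0.68, and 7 of its 10 genes were lower at a raw p no higher than 0.05. Its count of lower genes was 0, 0 and 4 on leaving out array 1, 2 or 3, 0 with scaled arrays and 5 with a dye term.

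None of 7 erythroid markers passed (limma, 2 higher and 0 lower at a raw p no higher than 0.05), and the 2 with the largest moderated t were Tfrc (0.74 ± 0.31, SD, n = 3) and Alas2 (0.53 ± 0.21). Of 18 stromal markers, Eng was higher (1.57 ± 0.03, limma adjusted p = 0.010) and Cldn4 lower (-0.94 ± 0.25, adjusted p = 0.039). Cldn4 did not pass on leaving out array 1 (adjusted p = 0.17), array 2 (adjusted p = 0.21) or array 3 (adjusted p = 0.052), or with scaled arrays (adjusted p = 0.095). The median of the stromal list was -0.02, and 2 of its 18 genes were higher and 3 lower at the raw p. The shares of all features were 4.13% higher and 2.81% lower, or 12% and 11.4% at the raw p.

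The thymocyte genes themselves were split. All features gave 4.13% higher and 2.81% lower, or 12% and 11.4% at a raw p no higher than 0.05. Of 18 markers of immature and proliferating thymocytes 3 were higher, 3 lower and 12 did not pass (4 higher and 6 lower at that raw p). Their median log2 ratio was -0.17. The highest were Il7r and the adhesion receptor Cd44 (2.15 ± 0.33, SD, n = 3, limma adjusted p = 0.011), both also found on mature T cells. The third was Spi1 (1.05 ± 0.34, adjusted p = 0.041), a factor of myeloid cells and of the earliest thymocytes that is also in the macrophage list. Spi1 did not pass on leaving out array 1, 2 or 3 (adjusted p = 0.13, 0.25 and 0.056), with a term for dye (adjusted p = 0.051) or with scaled arrays (adjusted p = 0.0505). The lower genes were Arpp21 (-1.82 ± 0.35, adjusted p = 0.015), Notch3 and Rag1, and leaving out array 2 left 1 of these. Rag1 passed (adjusted p = 0.035), though not on leaving out array 1 (adjusted p = 0.13), on leaving out array 2 (adjusted p = 0.18) or with scaled arrays (adjusted p = 0.072). Thy1 (0.06 ± 0.09), Cd3e (-0.21 ± 0.11) and Cd4 (-0.29 ± 0.07), of the same list, did not pass. Cd8a at -1.13 ± 0.62 did not pass (adjusted p = 0.081), but did on leaving out array 3 (adjusted p = 0.043) and with a term for dye (adjusted p = 0.048). A ratio near 0 says nothing about the level of a marker, so the purity of either RNA could not be read from these values.

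**Figure D4:**
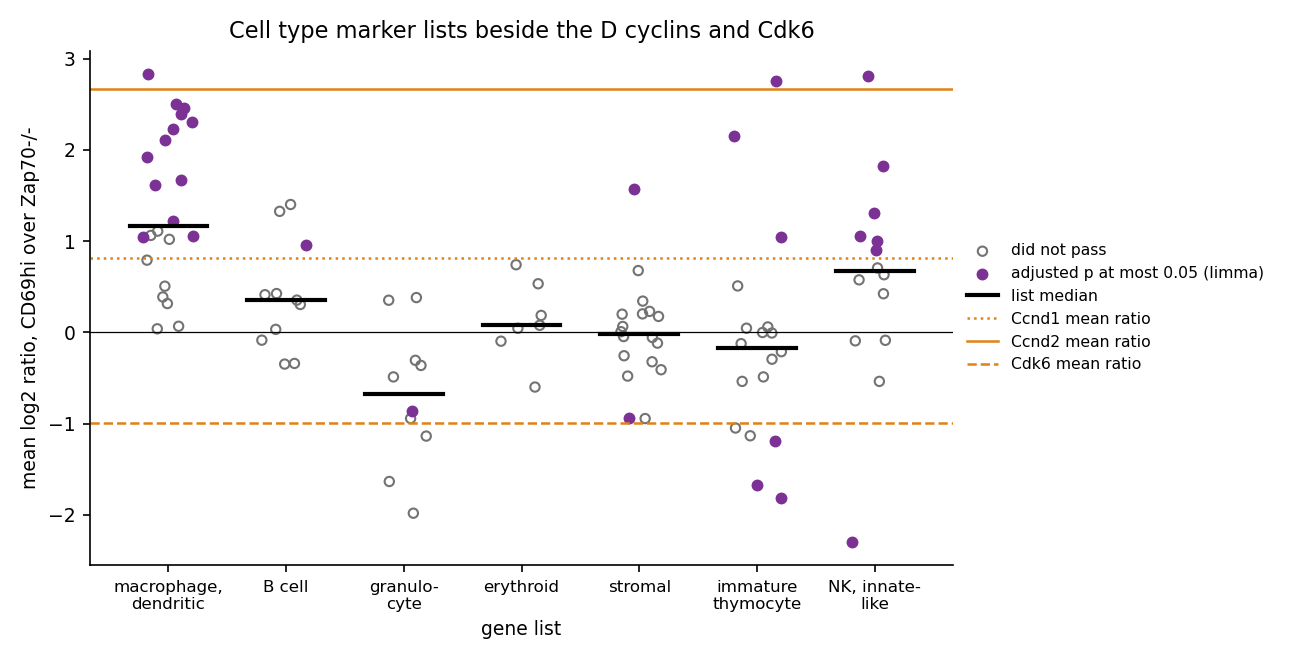
Mean log2 ratio of CD69hi over Zap70-/- RNA (y axis) for each measured gene of 7 marker lists (x axis). Filled points passed limma at an adjusted p of at most 0.05, black bars are list medians, and orange lines are the means of Ccnd1, Ccnd2 and Cdk6. The macrophage and dendritic cell median of 1.17 is the highest of the 7 and lies between Ccnd1 at 0.81 and Ccnd2 at 2.67.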

How the data were processed

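Per the labels, 3 2-colour arrays of 1 print compared CD69hi wild-type with unseparated Zap70-/- thymocyte RNA. The authors deposited 1 log ratio per probe and array, read here as log2 of Cy5 over Cy3. How background, spots and normalization were treated is not stated in any source used here. Array medians of the deposited values were -0.004, -0.005 and -0.002, and 0 values were missing. Spot intensities were not used here, so no filter on dim spots was possible. The number of arrays, 3, limits the precision.

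Values of arrays 1 and 2 were multiplied by -1. Deposited ratios of array 3 correlated with those of arrays 1 and 2 at r = -0.25 and -0.40 across probes, which are not independent replicates. Those of arrays 1 and 2 correlated with each other at r = 0.61, so array 3 was less close to either. Of 9596 probes, 7486 had 1 gene symbol, 483 several and 1627 none. Those with 1 symbol were averaged by gene and the others kept apart (8905 features). Cross-hybridisation between related genes was not tested.

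Each feature was fitted in limma 3.58.1 (R 4.3.3; lmFit, eBayes, 1 coefficient, 2 residual degrees of freedom), two-sided, Benjamini-Hochberg adjusted over all features at 0.05. Repeated simulated sets of 8905 features with the arrays' own spread were fitted, and 21 of the 528 calls summed over the sets were false. The fit recovered 30.6% of changes of size 1 and 70.8% of size 2. Not passing is therefore no sign of an equal level. Simulated features varied independently.

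Ccnd1, Ccnd2, Cdk6 and all gene lists were chosen with earlier results of these data known. Named genes are the members, the cyclin E, Cdk4, Cdkn, Rb and E2f genes, up to 6 called genes with the largest ratios per cell cycle list, 2 per marker list by moderated t, the 3 nearest genes of each member, and Rag1 and Dntt. Ccnd3, Cdk2 and Ccne2, also in that rule, were not analysed here. Myc, Tpx2, Notch3, Ets2, Egr3, Id3, Lef1, Gzma, Arpp21, Spi1, Thy1, Cd3e, Cd4 and Cd8a, and the genes at the ends of a list's range, were named after their values were seen. Alternatives were each array left out, a dye term, array 3 not turned, scaled arrays, the median of probes, robust shrinkage and each Cdk6 probe alone.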

Additional observations from a re-analysis of the deposited data

How the results depend on the processing

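Ccnd1, Ccnd2 and Cdk6 kept their signs under every alternative run. Each of these genes had the same sign on all 3 arrays. Leaving out an array, scaled arrays, a dye term or the median of probes therefore could not turn it. With array 3 not turned the mean log2 ratios of the 3 genes shrank to 0.21, 0.51 and -0.32. The Cdk6 mean was -1.28 with probe 1 alone and -0.72 with probe 2 alone. With array 3 not turned, limma called 0 features higher and 0 lower (342 at a raw p no higher than 0.05), and 0 in each direction in each of the 4 lists other than cell markers, where the count at that raw p was 0 in 3 of them and 1 among upstream regulators. Leaving out an array gave 95 to 283 features higher and 24 to 409 lower, against 368 and 250. For lower calls the range was 0 to 4 for G1 genes, 0 to 5 for other cyclins and kinases, 0 to 33 for S phase and mitosis genes and 0 to 2 for upstream regulators. For higher calls it was 0 to 1 for S phase and mitosis genes and 5 to 8 for upstream regulators. A dye term, which leaves 1 residual degree of freedom, gave 562 features higher and 514 lower, with 3 G1 and 34 S phase and mitosis genes lower. Only array 3 had the dyes swapped, so this term sets array 3 against arrays 1 and 2. An effect of dye and any other trait of array 3 cannot be told apart. The dye term itself passed in 0 features (limma, against 2161 at a raw p no higher than 0.05). Scaled arrays gave 285 features higher and 85 lower, so that 77.0% of calls were higher against 59.5%, with 0 G1 genes, 0 other cyclins and kinases, 6 S phase and mitosis genes and 1 upstream regulator lower. The causes of these changes in count were not tested. Robust shrinkage moved none of the list counts by over 1.5 times. The median of probes did not either, but it equals the mean for a gene with 1 or 2 probes. Nearly all list genes are of that kind, so it could hardly move the counts. Of 54 named genes refitted under each alternative, which leaves out the members and their nearest genes, 32 had a call to lose. Of these 32, 17, 22 and 6 lost it without array 1, 2 and 3. Without array 1 a call was gained by 1 named gene, and without array 3 by 5.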
